A study of Homo sapiens with 17 samples.

Results

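The 10 genes described here encode the mTOR kinase, subunits that define its complexes, the switch upstream of the first complex, an output kinase, and stress-induced proteins that restrain the pathway. They were taken by gene symbol from a table of 16884 protein-coding genes: MTOR, RPTOR, RICTOR, DEPTOR, TSC1, TSC2, RHEB, RPS6KB1, DDIT4 and SESN2. All 10 were found, and all 10 were among the 12564 genes with enough counts to be tested. RNA with poly-A tails was sequenced from BEAS-2B, an immortalised human bronchial epithelial line labelled wild type and grown in BEGM medium. The medium held acetaldehyde, a reactive product of ethanol oxidation, at 0 mM (control, 6 libraries), 10 mM (6 libraries) or 16 mM (5 libraries) for 24 h. No label tells separate cultures from repeat libraries of 1 culture, and the p-values below therefore cover only the spread among the libraries at hand, which may be technical.

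The mTOR kinase works in a pair of complexes. mTOR complex 1 contains RPTOR and promotes protein synthesis and growth through S6 kinase and the 4E-BP proteins, while mTOR complex 2 contains RICTOR and phosphorylates AKT, SGK1 and protein kinase C. RHEB bound to GTP switches complex 1 on at the lysosome, the TSC1-TSC2 complex keeps RHEB off, and under stress DDIT4 and SESN2 act to lower complex 1 activity. Most of this control acts through phosphorylation and protein binding, which were not measured, and all values below are of messenger RNA.

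Total estimated counts per library lay between 15952673 and 18809242. The first 10 mM library stood apart from all others: its median gene stood at 2.62 FPKM (fragment counts scaled for transcript length and library depth), against at least 6.71 FPKM in every other library. Results on the 10 genes are therefore given with and without it. The remaining libraries fell into sets whose log2 expression correlated at r of at least 0.99 across genes: 16 mM libraries 1 to 3 and 4 to 5, 10 mM libraries 2 to 4 and 5 to 6, and control libraries 1 to 3 and 4 to 6. No label gives a batch that matches these sets. Libraries within a set still differed by more than counting noise, and each was kept as a sample of its own in the main fit. Such a difference cannot tell repeat libraries of 1 culture from separate cultures. Of 8 epithelial markers, KRT8 and KRT18 were abundant (at least 181 and 273 FPKM in every library), whereas EPCAM and KRT19 stayed under 0.1 FPKM in every library. The rest were also low, with at most 0.12 FPKM for KRT5 and CDH1, 0.99 for CLDN4 and 1.02 for CLDN1 in any library. The 8 fibroblast markers together summed to 21.2 to 26.5 FPKM at 16 mM and 34.3 to 52.6 FPKM in control, and the leukocyte and endothelial markers summed to at most 0.920 FPKM in any library.

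In control cells the 10 genes spanned a wide range of levels per transcript length. DDIT4 (also called REDD1) was highest at 243 ± 117 FPKM (SD, n = 6), rank 271 of 16884 genes. RHEB, the activating GTPase, followed at 74.6 ± 3.49 FPKM, then RPS6KB1, which encodes S6 kinase 1, at 34.5 ± 3.31 FPKM. SESN2, a leucine sensor, stood at 21.6 ± 3.15 FPKM and the kinase MTOR at 18.2 ± 0.468 FPKM, and the ranges of these neighbours overlapped. TSC2 stood at 15.5 ± 0.988 FPKM and its partner TSC1 at 7.60 ± 0.619 FPKM. RPTOR stood between them at 10.5 ± 0.571 FPKM, and RICTOR at 6.69 ± 0.528 FPKM overlapped with TSC1. DEPTOR (gene ID 64798, on chromosome 8), an mTOR-binding inhibitor, was lowest at 1.03 ± 0.0783 FPKM, with only 17 to 46 counts in any library of the series, so its values carry the largest counting error.

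In GENCODE's GRCh38 annotation MTOR (gene ID 2475) lies at chr1:11106535-11262507 on the minus strand, RPTOR (57521) at chr17:80544819-80966371, and RICTOR (253260) at chr5:38937919-39074408 on the minus strand. TSC1 (7248) lies at chr9:132891348-132946874 on the minus strand, TSC2 (7249) at chr16:2047465-2089487 and RHEB (6009) at chr7:151466012-151520120 on the minus strand. RPS6KB1 (6198) lies at chr17:59893046-59950564, DDIT4 (54541) at chr10:72273920-72276036 and SESN2 (83667) at chr1:28259527-28282491. Strand use in these libraries is not stated in the labels or headers. Reads of TSC2 therefore cannot be told apart from those of NTHL1 and PKD1 where the exons overlap on the other strand, nor those of RICTOR from OSMR, those of TSC1 from GFI1B, or those of MTOR, DDIT4 and RPTOR from antisense RNAs (3 of them for RPTOR). RPS6KB1 shares exons with the protein-coding AC005702.1 on the same strand, where reads could not be told apart by strand either. DEPTOR shares exon sequence with AP005717.1, a long noncoding RNA on the other strand, so its few reads have the same limit. RHEB and SESN2 had no overlapping exon of another gene.

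The windows before the start sites were searched for elements through which stress factors are known to act, on both strands, over the 250 bases before the start: TGATGNAA (the C/EBP-ATF response element bound by ATF4 and CHOP), ACGTG (the core bound by HIF), CACGTG (an E-box, which contains ACGTG) and TGACG (the core of a cyclic AMP response element). Sequences are from RefSeq, GRCh38.p14, and 9 of the 10 genes had an entry. TSC2 held all 4 elements within a short stretch, shown because TSC2 was lower at 16 mM (chr16:2047861-2047890, plus strand, -124 to -95 from the start, elements in capitals). RHEB, shown because all its 16 mM libraries lay above the controls, held overlapping ACGTG and TGACG matches on the other strand (chr7:151519958-151519987, minus strand, -92 to -63). DDIT4 and SESN2 are shown as the stress-induced regulators of the set: the DDIT4 window (chr10:72273674-72273913, plus strand) held 1 ACGTG, in capitals, and the SESN2 window (chr1:28259268-28259507, plus strand) held none of the 4 elements. The RefSeq starts of TSC2 and RHEB lie downstream of the GENCODE starts, so both of their stretches fall inside the gene spans given above.
TSC2: gcggcccCGTCACGTGATGCAAggatcgcc
RHEB: ggagtttccgaCACGTCAtcgcgcggctgt
DDIT4: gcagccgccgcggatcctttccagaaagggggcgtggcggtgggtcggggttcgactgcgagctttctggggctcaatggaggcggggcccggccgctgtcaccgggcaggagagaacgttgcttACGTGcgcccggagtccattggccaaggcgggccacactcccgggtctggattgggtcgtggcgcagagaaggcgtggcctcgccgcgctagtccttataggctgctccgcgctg
SESN2: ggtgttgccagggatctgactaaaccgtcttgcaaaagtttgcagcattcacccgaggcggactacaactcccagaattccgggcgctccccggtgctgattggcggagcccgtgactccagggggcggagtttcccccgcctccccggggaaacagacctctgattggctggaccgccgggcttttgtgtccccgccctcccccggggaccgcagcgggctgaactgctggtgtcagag

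Of 27305 RefSeq windows of the same length, 3.19% held TGATGNAA, 18.7% ACGTG, 6.49% CACGTG and 21.7% TGACG. RICTOR held 1 ACGTG and TSC1 held 1 TGACG, while MTOR, RPTOR and RPS6KB1 held none of the 4. A match says only that these letters are there, and no binding was measured.

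At 16 mM the stress inhibitor DDIT4 fell to 0.442-fold of control, although its 16 mM and control libraries overlapped in FPKM. TSC2 fell to 0.781-fold and the output kinase RPS6KB1 rose by 0.37 on the log2 scale. These 3 of 10 genes passed edgeR's quasi-likelihood test at an adjusted p under 0.05, 1 higher and 2 lower, in the fit of all 17 libraries. Of all 12564 genes tested, 35.3% passed, 17.3% higher and 18.1% lower, so the share among the 10 was close to the background. When the first 10 mM library was left out of the fit, which shares its estimate of spread with this comparison, 7 of the 10 passed, against 65.9% of all genes: RICTOR, TSC1, RHEB and RPS6KB1 rose, and RPTOR, TSC2 and DDIT4 fell. The median log2 change of the 10 genes was -0.07 and that of all tested genes 0.00. Among the cell type markers, 5 of 7 tested fibroblast markers fell at 16 mM (median log2 change -1.87), and their part in these results was not tested. In bulk RNA, a change in the make-up of the cells and a change in RNA per cell cannot be told apart.

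**Figure D1:**
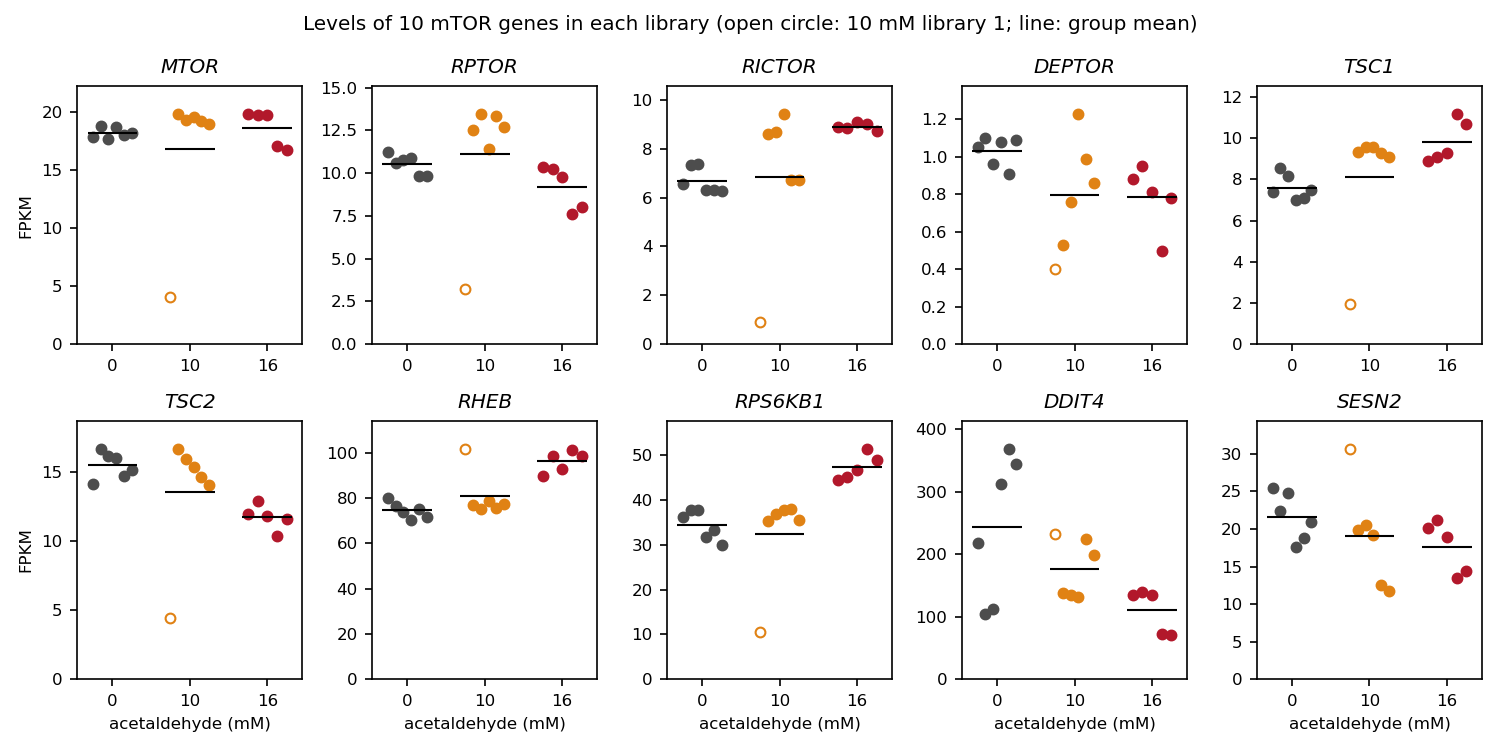
FPKM of each of the 10 genes (y axis, from 0) in every library, by acetaldehyde dose in mM (x axis). Each point is a library, the line is the group mean and the open circle is the first 10 mM library. TSC2 at 16 mM lies below every control, RICTOR, TSC1, RHEB and RPS6KB1 at 16 mM lie above every control, and DDIT4 overlaps between groups.

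Among the genes of the complexes themselves, RICTOR, the defining subunit of complex 2, had 8.88, 8.83, 9.10, 9.00 and 8.71 FPKM at 16 mM (libraries in order), against 6.57, 7.33, 7.39, 6.31, 6.31 and 6.25 FPKM in control. All 16 mM libraries lay above all controls. The log2 change was 0.43 ± 0.26 (SE, 1.35-fold; edgeR adjusted p = 0.217), and 0.44 ± 0.07 without the first 10 mM library (adjusted p = 2.85e-05). RPTOR, the defining subunit of complex 1, had 10.4, 10.2 and 9.80 FPKM in 16 mM libraries 1 to 3 and 7.59 and 8.02 FPKM in 16 mM libraries 4 and 5, against 9.81 to 11.2 FPKM in controls (median 10.7). The first set of 16 mM libraries thus reached into the control range and the second lay below it. Its log2 change was -0.19 ± 0.16 (adjusted p = 0.395), and -0.18 ± 0.07 without the first 10 mM library (adjusted p = 0.0306).

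MTOR had 19.9, 19.7 and 19.7 FPKM in 16 mM libraries 1 to 3 and 17.1 and 16.8 FPKM in 16 mM libraries 4 and 5, against 17.7 to 18.8 FPKM in controls (median 18.1). In FPKM the first set lay above every control and the second below every control. The normalization factors used in edgeR, which FPKM do not include, also differed between these sets (1.06 to 1.07 against 0.967 and 0.975). The log2 change of MTOR was 0.04 ± 0.18 (edgeR adjusted p = 0.894), and 0.05 ± 0.05 without the first 10 mM library (adjusted p = 0.380). DEPTOR had 0.880, 0.950, 0.810, 0.500 and 0.780 FPKM at 16 mM, against 0.910 to 1.10 FPKM in control (median 1.06), a log2 change of -0.39 ± 0.20 (adjusted p = 0.138) and of -0.38 ± 0.19 without the first 10 mM library (adjusted p = 0.0886). Of its 16 mM libraries 4 lay below every control and 1 within the control range.

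In the switch upstream of complex 1, TSC2, the subunit with the GTPase-activating domain that turns RHEB off, had 12.0, 12.9, 11.8, 10.4 and 11.6 FPKM at 16 mM, against 14.2, 16.7, 16.2, 16.1, 14.7 and 15.2 FPKM in control. The groups did not overlap, and the log2 change was -0.36 ± 0.13 (edgeR adjusted p = 0.0360) and -0.35 ± 0.05 without the first 10 mM library (adjusted p = 1.34e-05). TSC1, which stabilises TSC2, had 8.88, 9.08, 9.25, 11.2 and 10.7 FPKM at 16 mM, against 7.36, 8.54, 8.15, 6.98, 7.08 and 7.48 FPKM in control. All 16 mM libraries lay above all controls, with a log2 change of 0.39 ± 0.19 (adjusted p = 0.115) and of 0.40 ± 0.07 without the first 10 mM library (adjusted p = 0.000171).

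RHEB, the target of that complex, had 90.0, 98.7, 92.9, 101.14 and 98.9 FPKM at 16 mM, against 79.9, 76.7, 73.9, 70.4, 75.2 and 71.6 FPKM in control. The groups did not overlap, with a log2 change of 0.39 ± 0.21 (1.31-fold; edgeR adjusted p = 0.172) and of 0.39 ± 0.06 without the first 10 mM library (adjusted p = 9.05e-06). RPS6KB1, the kinase that phosphorylates ribosomal protein S6, had 44.5, 45.1, 46.8, 51.5 and 49.0 FPKM at 16 mM, against 36.2, 37.8, 37.8, 31.8, 33.2 and 29.9 FPKM in control. The groups did not overlap, and the log2 change was 0.37 ± 0.12 (adjusted p = 0.0245) and 0.38 ± 0.05 without the first 10 mM library (adjusted p = 3.48e-06).

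Both stress regulators divided by the sets of close libraries within each group. DDIT4, which is induced by hypoxia, DNA damage and glucocorticoids and restrains complex 1 through TSC2, had 134, 139, 134, 72.3 and 70.2 FPKM at 16 mM, against 218, 105, 112, 312, 369 and 344 FPKM in control. 16 mM libraries 4 and 5 lay below every control, whereas libraries 1 to 3 lay above 2 of the 6 controls, so the groups overlapped. The log2 change was -1.18 ± 0.40 (edgeR adjusted p = 0.0312) and -1.16 ± 0.33 without the first 10 mM library (adjusted p = 0.00539). SESN2, which binds GATOR2 when leucine is low, had 20.1, 21.2, 18.9, 13.5 and 14.4 FPKM at 16 mM, against 25.5, 22.3, 24.8, 17.6, 18.8 and 20.9 FPKM in control. The groups overlapped and SESN2 did not pass (log2 change -0.29 ± 0.31, adjusted p = 0.515, and -0.28 ± 0.14, adjusted p = 0.0838, without the first 10 mM library).

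Across the set, 5 of the 10 genes (RICTOR, TSC1, TSC2, RHEB and RPS6KB1) had 16 mM and control libraries that did not overlap in FPKM, as did 46.1% of all genes tested. Setting each set of close 16 mM libraries against each set of close controls gave 4 pairings. For these 5 genes the direction in the pairings was fixed by the lack of overlap, and only the size could vary. The log2 FPKM ratio over the pairings ran between 0.32 and 0.51 for RICTOR, 0.18 and 0.61 for TSC1, -0.52 and -0.32 for TSC2, 0.29 and 0.47 for RHEB, and 0.29 and 0.67 for RPS6KB1. It was below 0 in all 4 pairings for RPTOR (-0.48 to -0.01), DEPTOR (-0.70 to -0.22) and DDIT4 (-2.26 to -0.09). It took both signs for SESN2 (-0.79 to 0.07) and MTOR (-0.11 to 0.12).

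**Figure D2:**
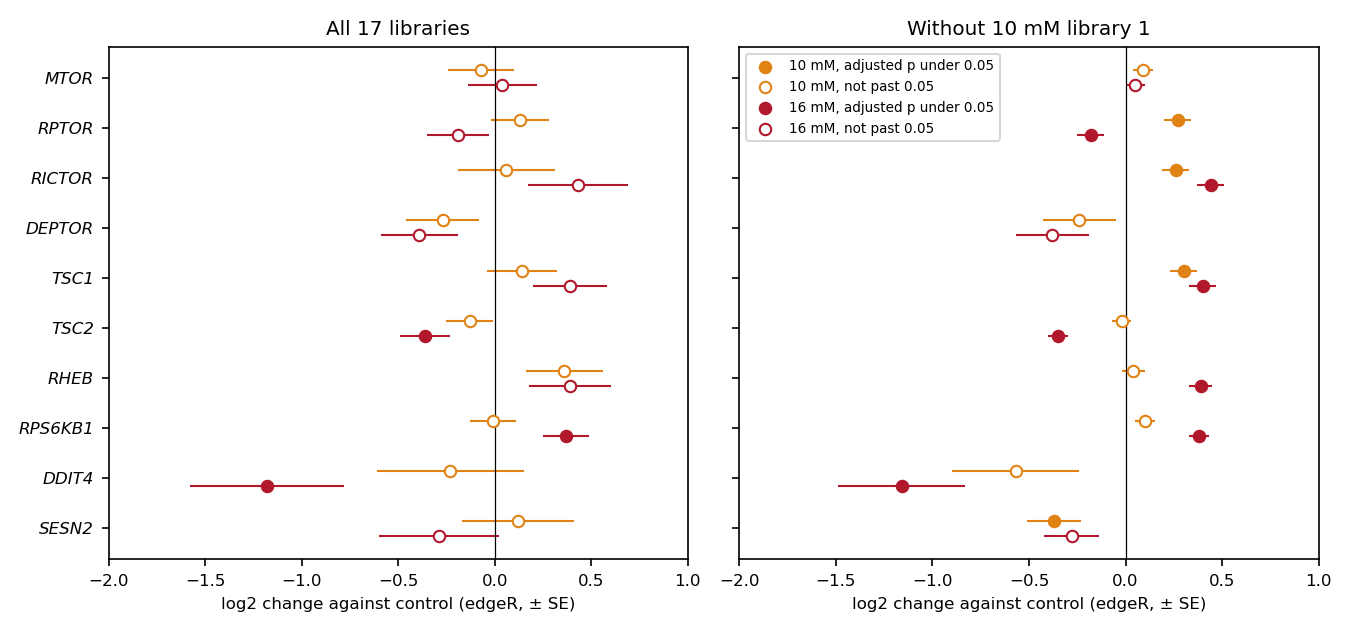
Log2 change against control with its SE (x axis, edgeR) of each gene (y axis) at 10 mM and 16 mM, for all 17 libraries on the left and without the first 10 mM library on the right. Filled points passed an adjusted p of 0.05: 3 genes at 16 mM on the left, and 7 at 16 mM and 4 at 10 mM on the right.

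The calls at 16 mM lay near the threshold, and each was lost in some of the fits that left out 1 library. Over those fits the log2 change ran from -1.34 to -1.01 for DDIT4, 0.34 to 0.40 for RPS6KB1 and -0.38 to -0.33 for TSC2. DDIT4 lost its call when control library 4, 5 or 6 or 16 mM library 4 or 5 was left out (adjusted p = 0.0620 to 0.0823), and RPS6KB1 without control library 6 or 16 mM library 4 or 5 (adjusted p = 0.0507 to 0.0680). TSC2 lost it when control library 2, 3, 4, 5 or 6 or 16 mM library 1, 3, 4 or 5 was left out (adjusted p = 0.0511 to 0.0860). Close libraries were also summed to 1 sample each, with the first 10 mM library left out. None of the 10 then passed, although 25.8% of genes did (edgeR adjusted p = 0.0537 for TSC2 and 0.0688 for DDIT4). Unadjusted p was under 0.05 for 6 of the 10, a looser cut for which the share of all genes is not given. With close libraries summed and the first 10 mM library kept, no gene passed. By the authors' deposited table, 8 of the 10 genes had a q-value under 0.05 at 16 mM, against 50.4% of genes there, with MTOR (q = 0.616) and DEPTOR (q = 0.0940) as the exceptions.

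Ratios of partner genes within each library were also computed, a choice made after the values were seen and so given without a test. TSC1 over TSC2 averaged 0.845 ± 0.155 at 16 mM (SD, n = 5, range 0.703 to 1.08) and 0.490 ± 0.0304 in control (n = 6, range 0.434 to 0.519). RICTOR over RPTOR averaged 0.984 ± 0.146 at 16 mM (range 0.856 to 1.19) and 0.637 ± 0.0467 in control (range 0.581 to 0.691). RPS6KB1 over MTOR averaged 2.57 ± 0.371 at 16 mM (range 2.24 to 3.02) and 1.89 ± 0.196 in control (range 1.64 to 2.14). In each ratio 16 mM libraries 4 and 5 were the highest of the series. TSC1 at 16 mM lay above and TSC2 below every control, so the separation of their ratio was fixed by these values. The share of other gene pairs with such a separation was not computed.

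**Figure D3:**
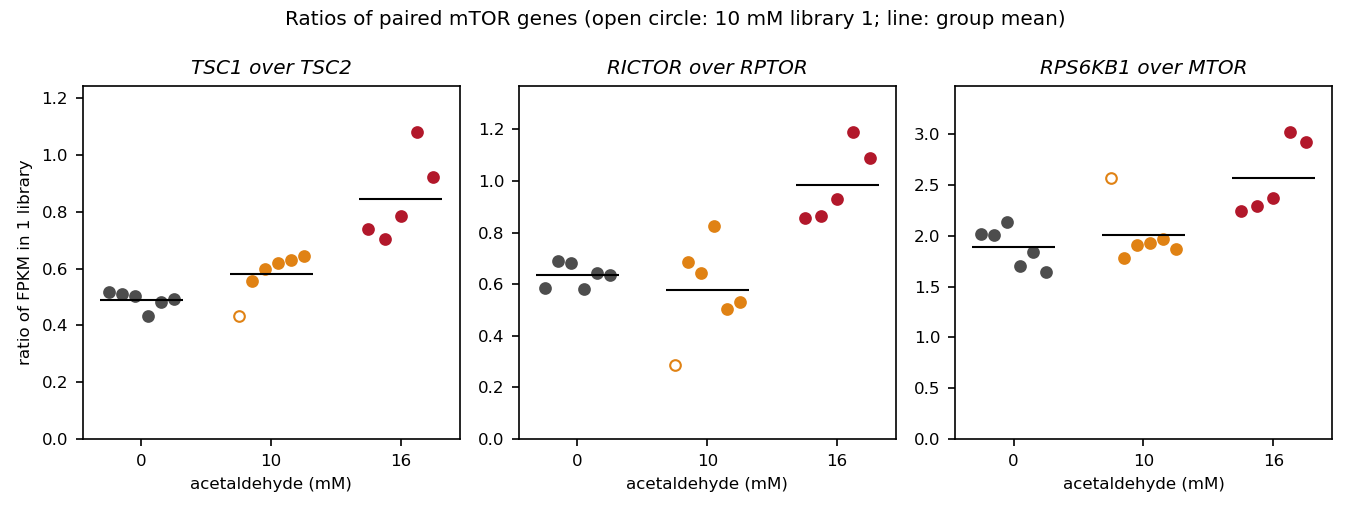
Ratio of the FPKM of 2 genes in each library (y axis, from 0) by acetaldehyde dose in mM (x axis), with group means as lines and the first 10 mM library as an open circle. All 3 ratios at 16 mM lie above every control, with TSC1 over TSC2 at 0.703 to 1.08 against 0.434 to 0.519. For TSC1 over TSC2 this was fixed by the lack of overlap of both genes.

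At 10 mM none of the 10 genes passed in the fit of all libraries, against 18.7% of all genes tested. None had an unadjusted p under 0.05 in edgeR or in DESeq2's Wald test, and the share of all genes at that cut is not given. The Wald test also called 0 of the 10, against 3143 of all genes. By the authors' deposited table none had a q-value under 0.05, against 15.4% of genes there. In the edgeR fit of all libraries the log2 changes ran between -0.27 ± 0.19 for DEPTOR and 0.36 ± 0.20 for RHEB. No gene of the 10 had groups that did not overlap, against 15.1% of all genes. Without the first 10 mM library 4 of the 10 passed, against 45.2% of genes: RPTOR, RICTOR and TSC1 rose and SESN2 fell. At 10 mM 4 of 7 tested fibroblast markers fell with all libraries (median log2 change -0.86). Without library 1, 3 of the 10 genes had groups that did not overlap (MTOR, RPTOR and TSC1), against 29.1% of genes.

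RPTOR had 12.5, 13.5, 11.4, 13.3 and 12.7 FPKM in 10 mM libraries 2 to 6, all above the control range of 9.81 to 11.2 FPKM, and 3.22 FPKM in library 1. Its log2 change without library 1 was 0.27 ± 0.07 (edgeR adjusted p = 0.00399), the opposite direction to 16 mM, and with all libraries 0.13 ± 0.15 (adjusted p = 0.550). TSC1 had 9.30, 9.57, 9.54, 9.25 and 9.09 FPKM in 10 mM libraries 2 to 6 and 1.94 FPKM in library 1, against 6.98 to 8.54 FPKM in control. Its log2 change was 0.30 ± 0.07 (adjusted p = 0.00371) without library 1 and 0.14 ± 0.18 (adjusted p = 0.597) with all libraries.

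RICTOR followed the sets of close libraries, with 8.58, 8.70 and 9.43 FPKM in 10 mM libraries 2 to 4 and 6.71 and 6.73 FPKM in the other set, against a control range of 6.25 to 7.39 FPKM. The first of these sets lay above every control and the second inside their range, and the log2 change was 0.26 ± 0.07 (edgeR adjusted p = 0.00518) without library 1 and 0.06 ± 0.25 (adjusted p = 0.893) with it. SESN2 divided in the same way, with 19.9, 20.6 and 19.2 FPKM in 10 mM libraries 2 to 4 and 12.6 and 11.8 FPKM in libraries 5 and 6, against 17.6 to 25.5 FPKM in control. Its log2 change was -0.37 ± 0.14 (adjusted p = 0.0381) without library 1 and 0.12 ± 0.29 (adjusted p = 0.796) with it, so the direction turned on that library. DDIT4 ran the other way, with 138, 134 and 132 FPKM in 10 mM libraries 2 to 4 and 225 and 198 FPKM in libraries 5 and 6, against 105 to 369 FPKM in control, and did not pass (-0.57 ± 0.33, adjusted p = 0.169, without library 1 and -0.23 ± 0.38, adjusted p = 0.692, with it).

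None of the other 5 genes passed at 10 mM without library 1. MTOR had 19.0 to 19.8 FPKM there against 17.7 to 18.8 FPKM in control (log2 change 0.09 ± 0.05, edgeR adjusted p = 0.114), and TSC2 had 14.1 to 16.7 FPKM against 14.2 to 16.7 FPKM. RHEB had 75.1 to 78.8 FPKM in 10 mM libraries 2 to 6 against 70.4 to 79.9 FPKM in control, and RPS6KB1 had 35.2 to 38.0 FPKM against 29.9 to 37.8 FPKM. DEPTOR had 0.530 to 1.23 FPKM in 10 mM libraries 2 to 6 against 0.910 to 1.10 FPKM in control (log2 change -0.24 ± 0.19, adjusted p = 0.319). With close libraries summed and library 1 left out, none of the 10 passed at 10 mM, against 1.83% of genes. None had an unadjusted p under 0.05 in that fit, a looser cut for which the share of all genes is not given.

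The first 10 mM library tended to stand lower against its group for longer transcripts, though not in strict order of length. RICTOR, the longest transcript of the 10 at 9.21 kb, stood at 0.920 FPKM there, a log2 ratio of -3.13 to the mean of the other 10 mM libraries. The log2 ratio was -2.24 for MTOR (8.33 kb), -2.27 for TSC1 (8.30 kb), -1.98 for RPTOR (6.51 kb), -1.78 for TSC2 (5.64 kb), -1.80 for RPS6KB1 (3.52 kb) and -1.13 for DEPTOR (2.24 kb). The shorter transcripts DDIT4 (1.42 kb) and RHEB (1.72 kb) had log2 ratios of 0.49 and 0.41, and SESN2 (3.13 kb) one of 0.87. Spearman's rho between length and this ratio was -0.903 across the 10 genes and -0.659 across 11307 genes with at least 1 FPKM, a description across genes that share the same libraries. The median log2 ratio of all genes was 1.04 for transcripts under 1 kb and -2.56 for those over 8 kb. Between 16 mM and control, rho was 0.515 across the 10 genes and 0.0564 across all genes, and the part of length in the results at 10 mM was not tested.

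**Figure D4:**
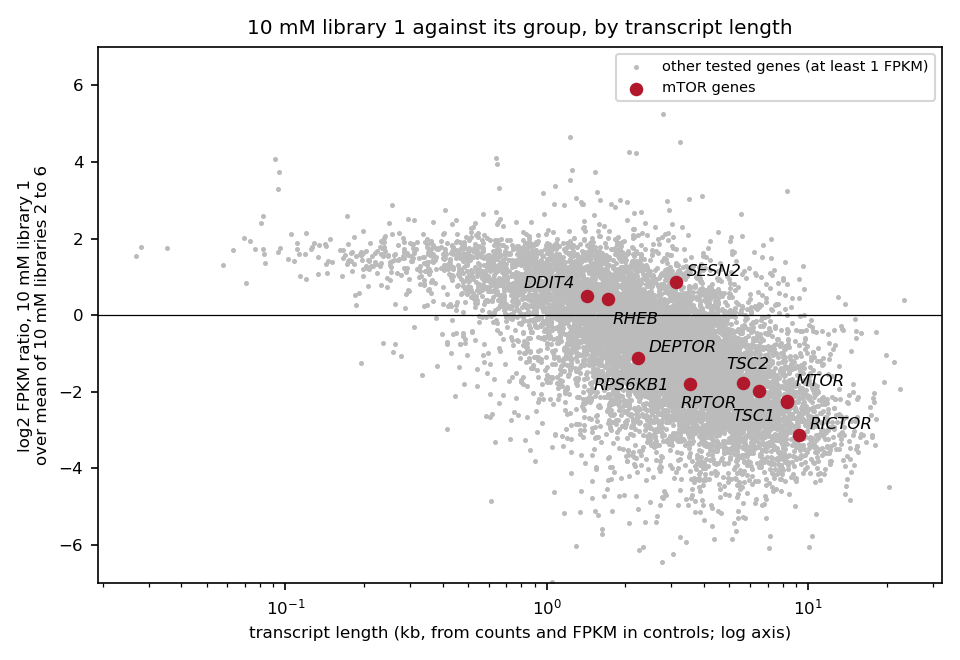
Log2 ratio of FPKM in the first 10 mM library over the mean of 10 mM libraries 2 to 6 (y axis) against transcript length in kb (x axis, log scale). Grey points are the other tested genes and red points the 10 mTOR genes, which run between 0.87 for SESN2 and -3.13 for RICTOR.

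Between the doses, RPS6KB1 was the only 1 of the 10 genes to pass in the fit of all libraries, against 14.1% of all genes. It was higher at 16 mM than at 10 mM by a log2 change of 0.38 ± 0.12 (edgeR adjusted p = 0.0458), but the call held in only 2 of the 17 fits that left out 1 library, without 10 mM library 1 or 4. The 16 mM and 10 mM libraries of RPS6KB1 did not overlap, as for 17.8% of genes. Without the first 10 mM library 4 of the 10 passed, against 44.1% of genes: RHEB (0.35 ± 0.06, adjusted p = 0.000236) and RPS6KB1 (0.28 ± 0.05, adjusted p = 0.000503) were higher at 16 mM than at 10 mM, and RPTOR (-0.45 ± 0.07, adjusted p = 0.000176) and TSC2 (-0.33 ± 0.05, adjusted p = 0.000172) were lower. These 4 genes also had groups that did not overlap, against 30.7% of genes. TSC1 over TSC2 averaged 0.610 ± 0.0344 in 10 mM libraries 2 to 6 (range 0.557 to 0.645), below every 16 mM library and above every control. In 10 mM library 1 TSC1 over TSC2 was 0.434, as in the lowest control. The other ratios overlapped with control in 10 mM libraries 2 to 6. RICTOR over RPTOR averaged 0.638 there against 0.637 in control, and RPS6KB1 over MTOR 1.89 against 1.89.

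Of 89 other genes of the pathway, in 11 lists by role, 86 could be tested. At 16 mM 10 rose and 11 fell, or 24.4%, against 35.3% of all genes tested, and without the first 10 mM library 34 rose and 22 fell, or 65.1%, against 65.9%. All 21 genes called with all libraries were also called, with the same sign, without that library. SGK1, a kinase that mTOR complex 2 phosphorylates and that many stresses induce, rose most of those called. It stood at 33.4 ± 10.7 FPKM at 16 mM (SD, n = 5, range 23.7 to 46.0) and 4.79 ± 1.41 FPKM in control (n = 6, range 2.98 to 6.32), 7.04-fold higher (edgeR adjusted p = 0.000304). Of the 7 tested substrates of complex 2, 1 rose and 3 fell, among them AKT2 to 0.756-fold of control (adjusted p = 0.000360) and PRKCA to 0.604-fold (adjusted p = 0.00213).

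Of 7 complex subunits and assembly factors beyond the 10 genes, 1 rose and 2 fell at 16 mM (42.9%, against 35.3% of all genes tested). Without the first 10 mM library 2 rose and 2 fell (57.1%, against 65.9% of genes). MLST8, a subunit of both complexes, stood at 16.4 ± 3.18 FPKM at 16 mM (range 11.6 to 19.2) and 27.4 ± 1.81 FPKM in control (range 25.8 to 30.8), a log2 change of -0.74 ± 0.27 (edgeR adjusted p = 0.0407). MAPKAP1, which encodes the complex 2 subunit SIN1, fell by 0.31 on the log2 scale (adjusted p = 0.0160), and TTI1, an assembly factor, rose by 0.58 (adjusted p = 0.000211). AKT1S1 (PRAS40), PRR5, PRR5L and TELO2 did not pass (adjusted p of 0.120 for TELO2 and higher for the others). RHEBL1, a relative of RHEB, stood at 25.6 ± 1.06 FPKM at 16 mM and 13.7 ± 3.18 FPKM in control, 1.91-fold higher (adjusted p = 1.72e-05), while TBC1D7, the third TSC subunit, did not pass (-0.23 ± 0.35).

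Among the nutrient sensors, of 13 genes for Rag GTPases, Ragulator and their regulators 2 rose and 0 fell at 16 mM, the lysosomal arginine sensor SLC38A9 (log2 change 0.31, edgeR adjusted p = 0.00501) and folliculin FLCN (0.37, adjusted p = 0.0285). Of 15 genes for GATOR and KICSTOR 0 rose and 2 fell, the GATOR1 subunit NPRL3 (-0.62, adjusted p = 8.44e-05) and the KICSTOR subunit KPTN (-0.77, adjusted p = 0.00459). Of 9 genes of the AMPK and LKB1 complexes CAB39 rose (0.38, adjusted p = 0.00625) and STRADA fell (-0.47, adjusted p = 0.00226). Of 9 genes of the S6 kinase and 4E-BP arm EIF4EBP2 rose (0.47, adjusted p = 0.0467) and EIF4B fell (-0.42, adjusted p = 0.00210), and of 6 autophagy and lysosome substrates WIPI2 (0.57, adjusted p = 0.00201) and ATG13 (0.21, adjusted p = 0.0126) rose. Without the first 10 mM library 7 rose and 2 fell of the Rag and Ragulator genes, 3 and 4 of the GATOR and KICSTOR genes, 4 and 3 of the AMPK and LKB1 genes, 3 and 3 of the S6 kinase and 4E-BP arm, and 3 and 0 of the autophagy and lysosome substrates. The background was 35.3% of genes called with all libraries and 65.9% without that library.

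**Figure D5:**
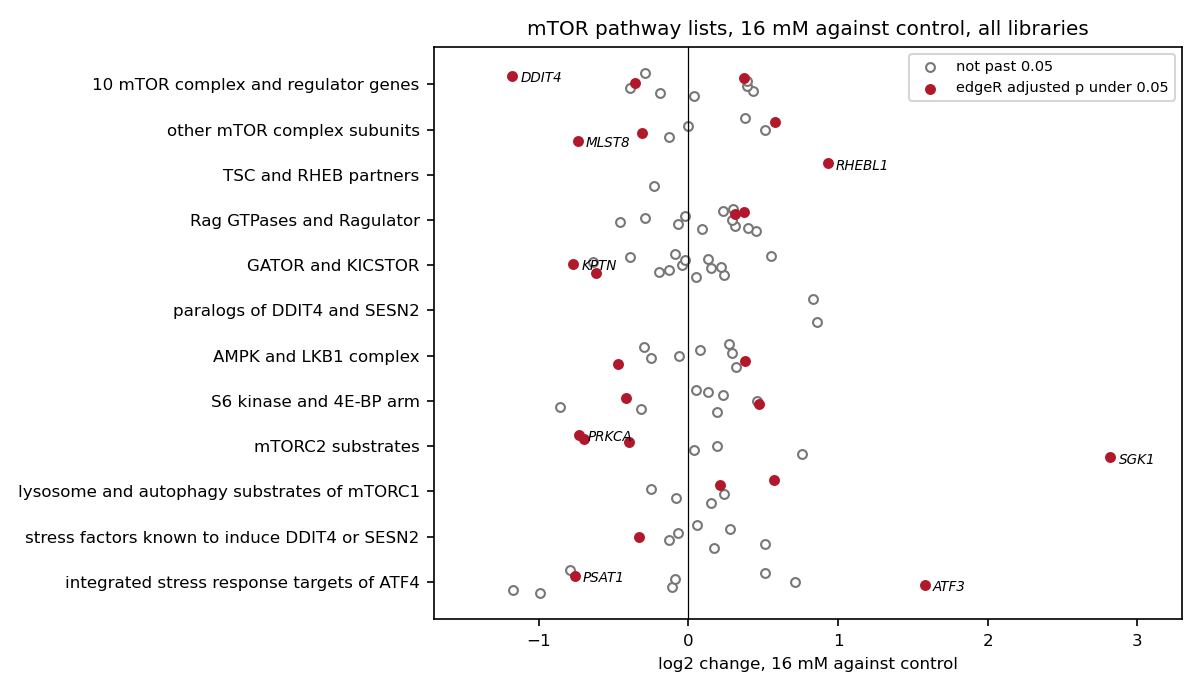
Log2 change at 16 mM against control (x axis, edgeR, all 17 libraries) of each gene in the lists by role (y axis), 1 point a gene. Red points passed an adjusted p of 0.05, among them SGK1 at 2.82 and DDIT4 at -1.18, and open points did not.

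Of 3 paralogs of the stress regulators 2 could be tested, and 0 passed at 16 mM in the fit of all libraries, although both had an unadjusted p under 0.05. SESN1, a sestrin related to SESN2, stood at 5.68 ± 1.57 FPKM at 16 mM (range 3.71 to 7.16) and 3.13 ± 0.585 FPKM in control (range 2.57 to 3.92), with a log2 change of 0.86 ± 0.35 (edgeR adjusted p = 0.0694, and 0.00136 without the first 10 mM library). SESN3 had 0.220 to 0.310 FPKM at 16 mM and 0.0700 to 0.210 FPKM in control, and DDIT4L had at most 0.0300 FPKM in any library and was not tested. At 10 mM SESN1 rose by 1.01 on the log2 scale (adjusted p = 0.0492, and 1.23 with adjusted p = 0.000142 without the first 10 mM library). Whether SESN1 and SESN2 differed in their response was not tested.

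Of 9 targets of ATF4, the factor of the integrated stress response that also induces SESN2 and DDIT4, ATF3 rose 2.99-fold at 16 mM (edgeR adjusted p = 0.0432) and the serine synthesis enzyme PSAT1 fell to 0.588-fold (adjusted p = 8.18e-05), 2 of 9 against 35.3% of all genes. Without the first 10 mM library 3 of the 9 rose and 4 fell, against 65.9% of all genes called. PSAT1 stood at 207 ± 5.72 FPKM at 16 mM and 356 ± 59.0 FPKM in control.

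At 10 mM, 5 of the 86 genes rose and 5 fell, or 11.6%, against 18.7% of all genes, and without the first 10 mM library 14 rose and 20 fell, or 39.5%, against 45.2%. All 10 calls kept their sign and passed without that library. SGK1 rose by 2.15 on the log2 scale (edgeR adjusted p = 0.00475), and stood at 36.9 FPKM in library 1 and 9.70 to 13.6 FPKM in the other 10 mM libraries, against 2.98 to 6.32 FPKM in control. Without library 1 its log2 change was 1.32 ± 0.24 (adjusted p = 0.000337). PRKCA (-0.60, adjusted p = 0.0118), PSAT1 (-0.60, adjusted p = 0.00116) and the cystine transporter SLC7A11 (-0.81, adjusted p = 0.00193) fell. Of the 9 ATF4 targets 1 rose and 6 fell at 10 mM without library 1, and 1 rose and 2 fell with it.

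The genes whose log2 CPM (depth-scaled counts) most resembled those of a gene of the 10 were sought among 9480 genes with a mean of at least 5 FPKM, over the 16 libraries other than the first 10 mM library. For DDIT4 they were SQOR (Pearson r = 0.975), MISP (0.967) and SLC26A2 (0.947), and for SESN2 IFRD1 (0.935), LIMK2 (0.930) and CLK4 (0.929). For RHEB they were RNMT (0.980) and PPAT (0.971), among others, and for DEPTOR, at its low counts, TMUB1 (0.732), CXorf38 (0.703) and MNS1 (0.698). SQOR, the closest to DDIT4, averaged 39.3 FPKM at 16 mM and 57.6 FPKM in control, and RNMT, the closest to RHEB, averaged 27.2 FPKM at 16 mM and 19.1 FPKM in control. These values describe likeness over libraries that fall into groups and sets.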

How the data were processed

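Messenger RNA of BEAS-2B cells was measured in 17 libraries, grouped by dose from the sample titles. Per the submitters' processing notes, genome build GRCh38.p13 was used with RSEM 1.3.1, Bowtie2 2.3.4.3, HISAT and DESeq2 1.4.5, in roles not stated. Per the file headers, the authors deposited read counts, here taken as estimated counts without normalization since 13.1% are not whole. They also deposited FPKM and TPM, per the file headers, the TPM columns (sums of 999999.24 to 1000000.22) serving only as a check. The log2 fold changes come from the authors' own DESeq2 comparisons, per the file headers. The q-values come from the same deposited comparisons of the authors. Columns with no sample numbered 0.

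Estimated counts were rounded and fitted with edgeR 4.0.16 (TMM, filterByExpr, quasi-likelihood test, 1 fit over 3 groups, two-sided, Benjamini-Hochberg over all genes tested). SE is the log2 change over the square root of F. Levels are FPKM, which are scaled for length and depth but not by TMM, so the first 10 mM library (TMM factor 0.559, at least 0.967 elsewhere) stands lower in FPKM than in edgeR. TMM factors also differed between sets, at 1.05 to 1.11 in control libraries 1 to 3 and 0.99 to 1.01 in 4 to 6. Statements on overlap between groups or sets concern FPKM only. Depth limits DEPTOR. The code was tested on simulated data.

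The 10 genes and the lists were chosen with earlier results of these data known. Named beyond the 10 were, per list, up to 4 called genes with the smallest p and at least 1 FPKM, or up to 2 where none was called, all paralogs and complex subunits, and 3 most similar genes for DDIT4, SESN2, DEPTOR and RHEB, Y-linked genes left out. Part of these are named, and some are not reported here. Alternatives were DESeq2 1.42.0, DESeq2 size factors, no filter, limma 3.58.1 on log2(FPKM + 1) and log2(FPKM + 0.1), library weights, only the groups compared, a block for the replicate number, each library left out and close libraries summed. Transcript lengths were derived from counts and FPKM in control.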

Additional observations from a re-analysis of the deposited data

Results flagged for a closer look

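Of 30 combinations of a gene and a dose group, 7 held a library far from the rest of its group by Dixon's test at 95%, and all 7 were the first 10 mM library. Chance alone marks about 1 in 20 groups. In that library MTOR stood at 4.11 FPKM, RPTOR at 3.22 FPKM, RICTOR at 0.92 FPKM, TSC1 at 1.94 FPKM, TSC2 at 4.47 FPKM and RPS6KB1 at 10.57 FPKM, each the lowest of its group, while RHEB at 101.97 FPKM was the highest of its group. DDIT4, SESN2 and DEPTOR were not marked in any group. The 7 genes share 1 library, so these are not independent observations.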

How the results depend on the processing

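Counts of called genes for 10 mM against control, 16 mM against control and 16 mM against 10 mM were 2351, 4439 and 1777 in the fit reported, and counts among the 10 genes were 0, 3 and 1. With DESeq2 size factors and the DESeq2 Wald test the counts among the 10 were the same 0, 3 and 1. The size factors gave 2426, 4427 and 1756 genes and the Wald test 3143, 4973 and 2671. Limma voom with library weights called 7517, 9201 and 7530 genes and 6, 6 and 4 of the 10. Only the groups compared gave 1530, 7979 and 569 genes and 0, 9 and 0 of the 10. Without a filter, and with limma on log2(FPKM + 1) or log2(FPKM + 0.1), 2 of the 10 were called at 16 mM against control and 0 in the other comparisons. The gene counts were 2117, 4531 and 1441 without a filter. They were 1841, 3703 and 1287 with limma on log2(FPKM + 1), and 1671, 3498 and 1222 on log2(FPKM + 0.1). Close libraries summed gave 0, 0 and 0 genes and 0 of the 10, and without the first 10 mM library 246, 3480 and 0 genes and 0 of the 10. Leaving out each library gave 1633 to 5670, 3559 to 8271 and 808 to 5537 genes and 0 to 4, 0 to 7 and 0 to 4 of the 10, the highest of each without the first 10 mM library.

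Each library's deviations from its group mean in log2 CPM were compared across genes between same-numbered libraries of different groups. These deviations correlated at -0.39 to 0.414, so the numbers were not taken as pairs. The 10 mM mean included the first 10 mM library. A replicate block gave 1824, 4153 and 1304 genes and 0, 1 and 0 of the 10. With the first 10 mM library also left out it gave 5653, 8506 and 5881 genes and 4, 8 and 4 of the 10.

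All reversals concerned 10 mM against control or 16 mM against 10 mM, and the cause was not tested. For 10 mM against control, log2 changes of the other sign were, with the block, RICTOR -0.03 and SESN2 -0.06; with the block and without the first 10 mM library, MTOR 0.09, RPS6KB1 0.10 and SESN2 -0.34; with DESeq2 size factors and the Wald test, RPS6KB1 0.00; with limma on log2(FPKM + 1), RPTOR -0.03, RICTOR -0.15, TSC1 -0.03 and SESN2 -0.23, and on log2(FPKM + 0.1) RPTOR -0.06, RICTOR -0.25, TSC1 -0.07 and SESN2 -0.24. With library weights they were MTOR 0.03, RPS6KB1 0.14 and SESN2 -0.15. With close libraries summed they were RPTOR -0.00, RICTOR -0.20, TSC1 -0.03 and DDIT4 0.07, and also without the first 10 mM library MTOR 0.10, RPS6KB1 0.10 and SESN2 -0.43. For 16 mM against 10 mM they were MTOR -0.04 and SESN2 0.01 with the block and without that library, RHEB -0.02 with DESeq2 size factors and the Wald test, DEPTOR 0.00 and 0.03 with limma on FPKM, DEPTOR 0.16, TSC1 -0.04 and SESN2 0.04 with library weights, RHEB -0.21 with close libraries summed, and MTOR -0.08 and SESN2 0.10 when that library was also left out.

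Over the fits that left out 1 library, the log2 change at 10 mM against control ran from -0.12 to 0.09 for MTOR, -0.04 to 0.26 for RICTOR, -0.04 to 0.10 for RPS6KB1 and -0.37 to 0.27 for SESN2, and at 16 mM against 10 mM from -0.04 to 0.16 for MTOR, -0.23 to 0.01 for DEPTOR, -0.04 to 0.35 for RHEB and -0.56 to 0.09 for SESN2. Depth limits DEPTOR, with 17 to 46 counts in a library.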
